A study of Homo sapiens with 6 samples.

Results

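Messenger RNA levels of 42 regulators of G2 and of entry into and passage through mitosis were followed in hTERT RPE-1 cells given a low pre-dose of camptothecin. hTERT RPE-1 is a human retinal pigment epithelial line immortalised with telomerase, and camptothecin traps topoisomerase 1 on DNA. The 42 genes were taken by name, with no threshold on their values but with earlier results of these data known, and all 42 were found among the 13696 genes of the table. The pre-dose libraries (3) came from cells given 25 nM camptothecin for 1 h and harvested 24 h later without drug, and the untreated libraries (3) from cells given none. Both groups were grown in the same medium, and all libraries come from this 1 line. The series concerns cullin 3 and adaptation to topoisomerase 1 inhibitors, and these libraries ask what the pre-dose alone does to expression. Nothing in the labels ties the replicates to separate cultures, and the spread behind each p-value is that between libraries, which may be technical.

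Cells enter mitosis when the kinase CDK1, bound to cyclin A or B, escapes its inhibitory phosphorylation. The polo and aurora kinases then build the spindle, and the spindle checkpoint holds back the anaphase-promoting complex until chromosomes are attached. Most of the genes involved are transcribed in late S phase, G2 and mitosis, under FOXM1, MYBL2 and the MuvB complex, and are largely silent in resting cells. After DNA damage p53 induces CDKN1A, the kinase inhibitor p21, and in this setting the DREAM repressor complex is known to bind and switch off many of them. In bulk RNA, a smaller share of cells in G2 or mitosis and less of these RNAs per cell cannot be told apart.

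Levels are given as CPM, counts scaled by the sum of their library, in the order of replicates 1, 2 and 3. CPM is not corrected for gene length, so levels are compared between libraries and not between genes. Differences are pre-dose minus untreated on a log2(CPM + 1) scale unless stated. Effective library totals, worked out from the lowest deposited value of each library taken as 0.5 counts, were 26336942 to 31780392 reads. Whether they are plain sums of counts was not checked. Results are given by replicate pair, taken by replicate number. Over all genes the libraries of replicate 1, pre-dose and untreated, deviated from their group means together, with a correlation of 0.66. Deviations within a group sum to 0, so opposite deviations in the other libraries follow in part from this. A pair has 1 library per group and allows no test. Of 10 markers of retinal pigment epithelium, MITF, OTX2 and BEST1 were measured. MITF had 46.1, 50.6 and 49.4 CPM in pre-dose libraries and 44.9, 46.4 and 45.2 CPM in untreated libraries. RPE65, RLBP1, TYR, PMEL, TTR, SERPINF1 and CRX were looked up by name and not found among the genes of the table. Of 6 epithelial markers KRT8, KRT18 and KRT7 were measured, and KRT19, CDH1 and EPCAM were not found among the genes of the table. The mesenchymal and culture genes VIM, FN1, CDH2 and COL1A1 were all measured. COL1A1, a collagen, had 139, 321 and 258 CPM in pre-dose libraries, against 159.5, 409 and 428 CPM in untreated libraries, and FN1, fibronectin, had 13191, 19766 and 18993 CPM in pre-dose and 12585, 19991 and 20411 CPM in untreated libraries, both low in the replicate 1 libraries. In limma over 6 libraries none of these 7 passed at an adjusted or an unadjusted p of 0.05, and in replicates 2 and 3 only COL1A1 (-0.54, adjusted p = 0.00259) and KRT18 (-0.15, adjusted p = 0.0198) passed as lower in limma. In that fit 3.47% of all genes passed as lower. In the authors' deposited table KRT18 had an adjusted p of 0.0420 and COL1A1 one of 0.0865. What part the state of the culture has in the members' differences was not tested. Markers of blood, endothelium and neurons (PTPRC, PECAM1 and RBFOX3) were not found among the genes of the table.

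Within each replicate pair nearly all of the 42 genes differed in 1 direction, which was not the same in all pairs. In the replicate 2 and 3 pairs all 42 were lower after the pre-dose, where 32.4% of the 13616 genes tested were lower in both. Of all genes, 49.3% were higher in the replicate 2 pair and 50.5% in the replicate 3 pair, and 0 members were. All 42 members were among the genes tested, which had a mean of 1 CPM or more. In the replicate 1 pair 41 of the 42 were higher and 1, MYBL2, was lower, while 48.4% of all genes were higher. The pattern of higher in the first pair and lower in both others held for 41 members, against 16.2% of all genes. The median member stood at 113% of its untreated partner in the replicate 1 pair, 70.4% in the replicate 2 pair and 81.4% in the replicate 3 pair. Median differences were 0.18, -0.50 and -0.29, beside medians over all genes of -0.0039, -0.0024 and 0.0012. All 42 members were further below 0 in the replicate 2 pair than in the replicate 3 pair. The difference was lower in the replicate 2 pair for 7017 of the 13616 genes tested. The same held for 21 of 22 S phase genes and 14 of 16 genes of the anaphase-promoting complex, lists described below, so it is not particular to the members.

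**Figure D1:**
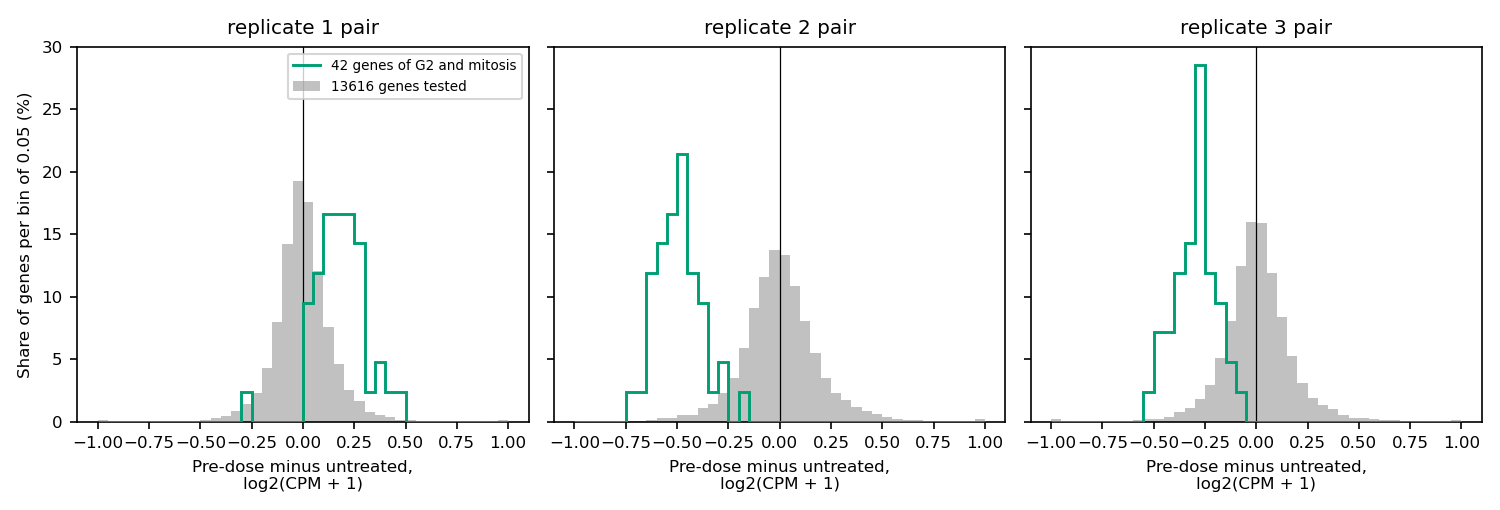
Share of genes in bins of the log2(CPM + 1) difference, pre-dose minus untreated, within each replicate pair, for the 42 genes of G2 and mitosis (green outline) and the 13616 genes tested (grey), with values beyond the axis placed in the end bins. The green distribution lies right of 0 in the replicate 1 pair, except for 1 gene, and wholly left of 0 in the other two.

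At a size of 0.25 on the log2 scale, 41 members were lower in the replicate 2 pair, against 6.84% of all genes, and 0 were higher, against 8.01%. BUB3 was the 1 member below that size. In the replicate 3 pair 30 members were lower by that much, against 5.04% of all genes, and 0 were higher, against 5.98%. The replicate 1 pair had 11 members higher by it, against 4.02% of all genes, and 1 lower, against 3.63%. Exact 95% intervals for counting error alone lay below 0 for 42 members in the replicate 2 pair and for 40 in the replicate 3 pair. In the replicate 1 pair they lay above 0 for 36, below 0 for MYBL2 and across 0 for 5. The intervals were computed for the members only. These counts therefore have no share over all genes beside them and do not set the members apart. The lowest count of any member in a library was 207 reads, for SGO1 in pre-dose replicate 2.

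Placed by library, pre-dose replicate 2 was the lowest of the 6 libraries for all 42 members, as it was for 22% of all genes. Pre-dose replicate 1 was the highest for 34, against 16.3% of all genes. Pre-dose replicates 2 and 3 both lay below all 3 untreated libraries for 40 members, against 16.2% of all genes. For TTK and ASPM, pre-dose replicate 3 lay above untreated replicate 1, which was low for both. The 2 groups overlapped for all 42 members. Of all genes, 3.19% had every pre-dose library below every untreated one and 3.36% every pre-dose library above. In a list of 42 genes such low shares come to few or none, so this does not set the members apart. The mean log2(CPM + 1) over the members was 6.58, 5.85 and 6.02 in pre-dose libraries and 6.41, 6.34 and 6.32 in untreated libraries. The spread of this mean was thus 0.38 (SD, n = 3) among pre-dose libraries and 0.048 (SD, n = 3) among untreated libraries.

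**Figure D2:**
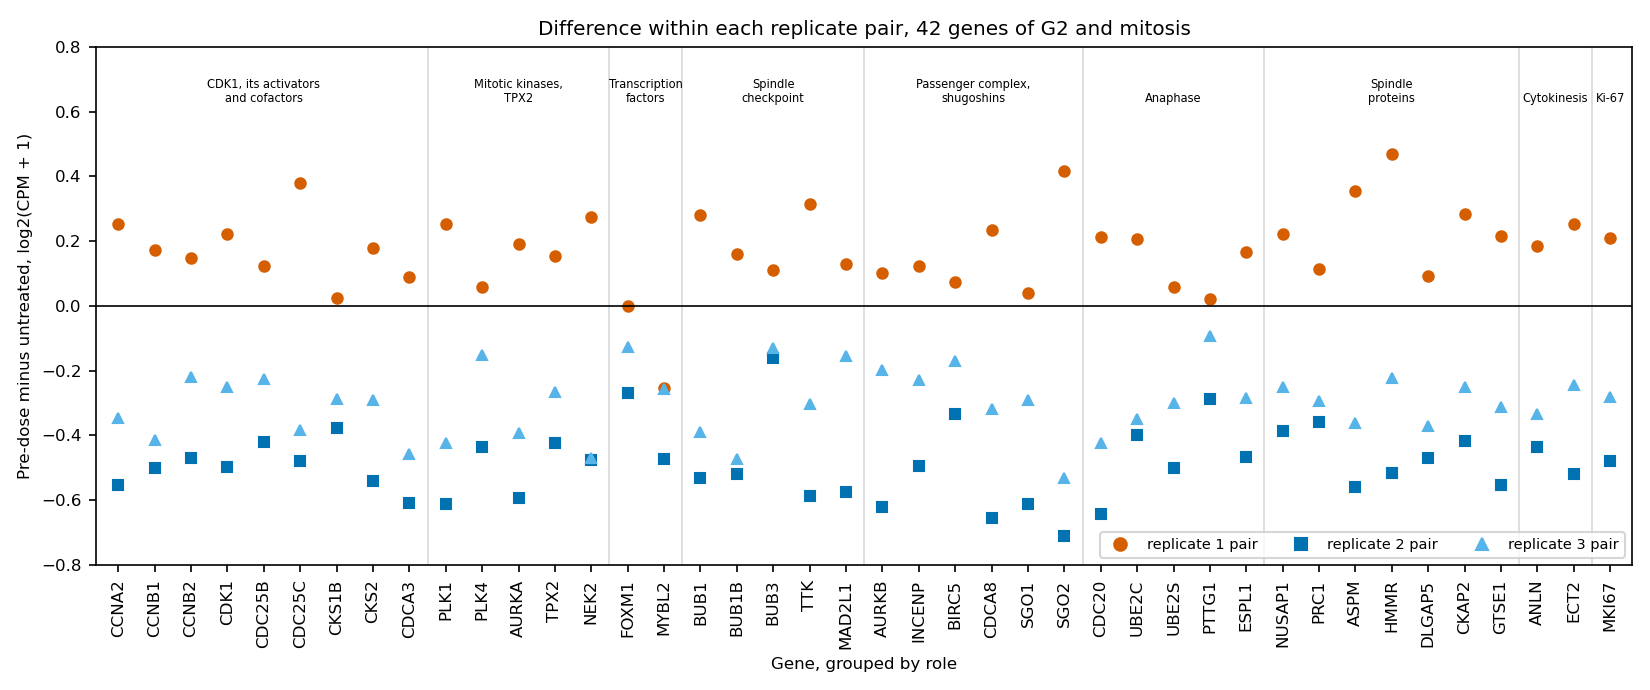
Difference in log2(CPM + 1), pre-dose minus untreated, for each of the 42 genes (x axis, grouped by role) in the replicate 1 (orange circles), 2 (dark blue squares) and 3 (light blue triangles) pairs. All squares and triangles lie below 0, and all circles but that of MYBL2 lie at or above it.

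CDK1 and the cyclins that activate it showed the pattern in full. CDK1, the kinase that drives mitotic entry, lies on chromosome 10 from 60778331 to 60794852 (GRCh38) and had 40.1, 28.4 and 32.3 CPM in pre-dose libraries, against 34.2, 40.4 and 38.6 CPM in untreated libraries. Differences in the 3 pairs were 0.22, -0.50 and -0.25, and pre-dose replicates 2 and 3 lay below every untreated library. CCNB1, cyclin B1, on chromosome 5 from 69167010 to 69178245, had 112, 58.5 and 61.0 CPM in pre-dose libraries, against 99.8, 83.2 and 81.6 CPM in untreated libraries. Pre-dose replicates 2 and 3 were the lowest of its libraries and pre-dose replicate 1 the highest. CCNB2, cyclin B2, had 97.6, 56.9 and 63.7 CPM in pre-dose libraries, against 87.9, 79.3 and 74.2 CPM in untreated libraries. Its pre-dose levels were 111, 71.8 and 85.8% of the paired untreated levels. CCNA2, cyclin A2, which also pairs with CDK2 in S phase, had 128, 70.4 and 76.8 CPM in pre-dose libraries, against 108, 104 and 97.8 CPM in untreated libraries, with differences of 0.25, -0.55 and -0.35.

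CDC25C and CDC25B encode phosphatases that remove the inhibitory phosphates of CDK1. CDC25C had 12.4, 7.77 and 7.93 CPM in pre-dose libraries, against 9.28, 11.2 and 10.7 CPM in untreated libraries. Its differences were 0.38, -0.48 and -0.38, and in the replicate 1 pair that is larger than for any of the 3 cyclins. CDC25B had 186, 108 and 121 CPM in pre-dose libraries, against 171, 146 and 142 CPM in untreated libraries, and its untreated library of replicate 1 was above the other untreated libraries. CKS1B and CKS2 encode small subunits of cyclin-dependent kinases. CKS2 had 66.98, 39.1 and 44.8 CPM in pre-dose libraries, against 59.0, 57.4 and 55.1 CPM in untreated libraries and was lowest in pre-dose replicate 2 and highest in pre-dose replicate 1. CKS1B had 60.6, 36.4 and 39.6 CPM in pre-dose libraries, against 59.6, 47.5 and 48.6 CPM in untreated libraries, and its difference in the replicate 1 pair, 0.02, was within counting error. CDCA3, named for triggering mitotic entry, had 73.4, 36.7 and 41.2 CPM in pre-dose libraries, against 69.0, 56.5 and 57.0 CPM in untreated libraries. It had the second largest mean difference of all members, -0.33, with 0.09, -0.61 and -0.46 in the 3 pairs. All 9 members of this group were lower in the replicate 2 and 3 pairs, with medians of 0.17, -0.50 and -0.29 in the 3 pairs.

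**Figure D3:**
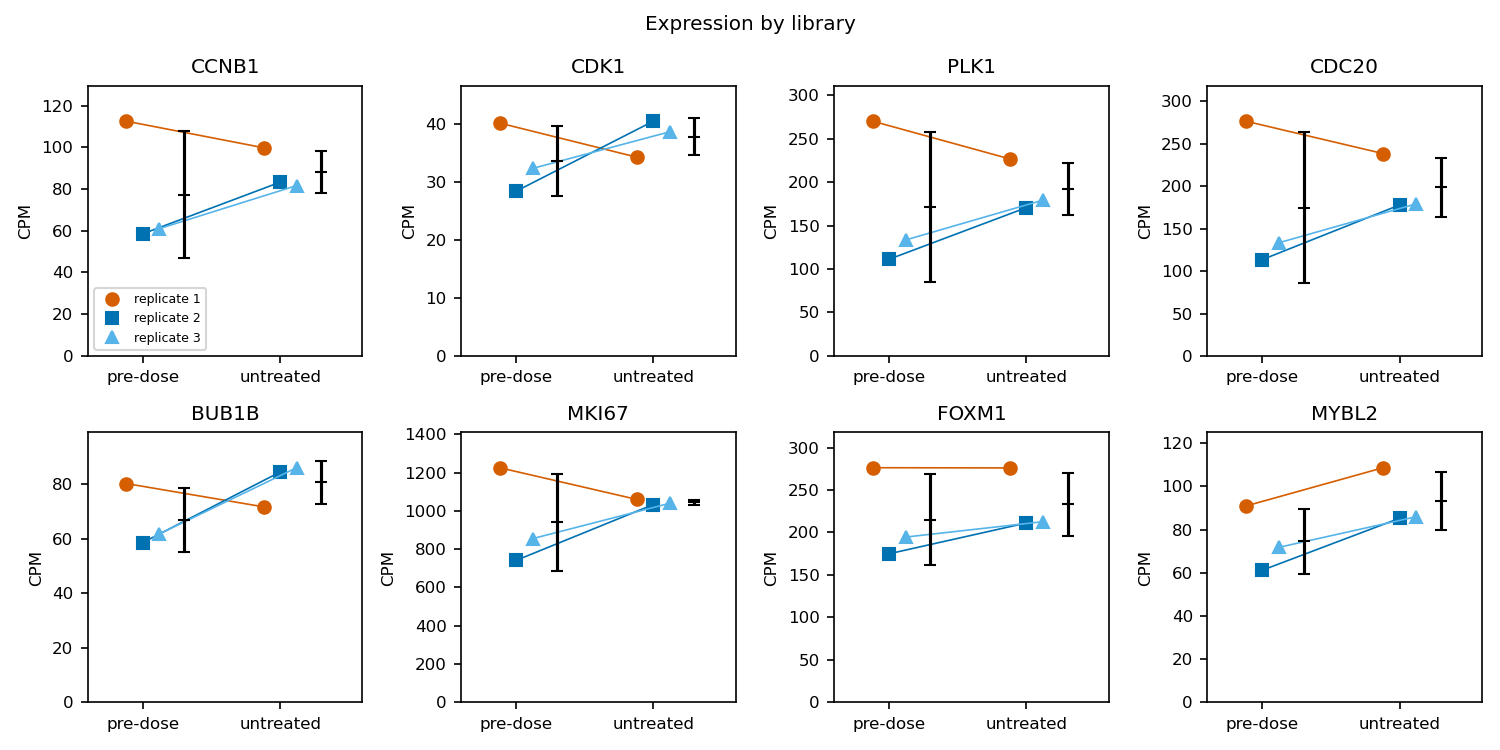
CPM (y axis, from 0) of 8 genes in each library, pre-dose at left and untreated at right, with lines joining libraries of the same replicate number and black bars giving the mean and SD of each group (n = 3). CCNB1, CDK1, PLK1, CDC20, BUB1B and MKI67 are lower in the pre-dose library of replicates 2 and 3 and higher in that of replicate 1, FOXM1 is level in replicate 1, and MYBL2 is lower after the pre-dose in all 3 pairs.

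For the 5 kinases and kinase activators that act beside CDK1 the medians were 0.19, -0.48 and -0.39 in the 3 pairs. PLK1, the polo kinase of mitotic entry, on chromosome 16 from 23677656 to 23690367, had 270.0, 111 and 133 CPM in pre-dose libraries, against 227, 171 and 179 CPM in untreated libraries. Levels in pre-dose libraries were 119, 65.2 and 74.4% of the untreated partners. AURKA, the aurora kinase of centrosomes, had 90.04, 45.1 and 52.2 CPM in pre-dose libraries, against 78.8, 68.6 and 68.9 CPM in untreated libraries, with differences of 0.19, -0.59 and -0.39. TPX2, which activates AURKA on spindle microtubules, had 269, 167 and 180.4 CPM in pre-dose libraries, against 241, 224 and 217 CPM in untreated libraries. For both, pre-dose replicates 2 and 3 stood below all untreated libraries. NEK2, a kinase that separates centrosomes, differed by 0.27, -0.48 and -0.47. PLK4, the kinase of centriole duplication, differed less, by 0.06, -0.44 and -0.15, and its untreated libraries lay close together at 21.2, 22.2 and 21.8 CPM.

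Of the transcription factors, MYBL2 was the 1 member lower in the replicate 1 pair, and FOXM1 was level there within counting error, as were PTTG1, CKS1B, SGO1 and PLK4. FOXM1, which drives many G2 genes, had 276, 175 and 195 CPM in pre-dose libraries, against 276, 211 and 213 CPM in untreated libraries. The replicate 1 pair differed by 0.0013, a sign that turned when libraries were centred on their medians, and the other pairs by -0.27 and -0.13, the second smallest differences among members in both. MYBL2, the B-MYB partner of the MuvB complex, on chromosome 20 from 43667019 to 43716496, had 90.9, 61.2 and 71.8 CPM in pre-dose libraries, against 109, 85.3 and 85.9 CPM in untreated libraries. Each pre-dose library was below its own untreated partner, with differences of -0.25, -0.47 and -0.26, but pre-dose replicate 1 was above untreated replicates 2 and 3. It was thus lower in all 3 pairs, as 16.3% of all genes were. For both factors the untreated replicate 1 library was well above the other untreated ones, by 0.38 for FOXM1 and 0.34 for MYBL2 on the log2 scale.

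The 5 spindle checkpoint genes had medians of 0.16, -0.53 and -0.30, with BUB3 nearest to 0 in each pair. BUB1, a checkpoint kinase of kinetochores, had 119, 64.4 and 74.3 CPM in pre-dose libraries, against 97.7, 93.4 and 97.7 CPM in untreated libraries. Its untreated libraries lay close together and its pre-dose libraries on either side of them, with differences of 0.28, -0.53 and -0.39. BUB1B, the checkpoint protein BUBR1, on chromosome 15 from 40161023 to 40221136, had 80.2, 58.6 and 61.7 CPM in pre-dose libraries, against 71.6, 84.4 and 86.0 CPM in untreated libraries. All 3 pre-dose libraries lay below untreated replicates 2 and 3, and untreated replicate 1 lay between the pre-dose libraries. TTK, the kinase MPS1, had 28.4, 18.2 and 22.8 CPM in pre-dose libraries, against 22.6, 27.9 and 28.4 CPM in untreated libraries, with differences of 0.31, -0.59 and -0.30. MAD2L1, which encodes the inhibitor of CDC20 MAD2, had 41.1, 25.0 and 30.6 CPM in pre-dose libraries, against 37.5, 37.7 and 34.2 CPM in untreated libraries, and the replicate 3 pair differed much less than the replicate 2 pair. BUB3, a partner of BUB1 and BUB1B, had 286, 207 and 217 CPM in pre-dose libraries, against 265, 231 and 238 CPM in untreated libraries. It had the smallest mean difference of the 42, -0.06, and differed by 0.11, -0.16 and -0.13.

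The chromosomal passenger complex corrects faulty attachments of chromosomes. Its 4 genes and the 2 shugoshins had the median furthest below 0 of the roles in the replicate 2 pair, -0.62. AURKB, its kinase, had 50.8, 27.1 and 32.7 CPM in pre-dose libraries, against 47.2, 42.3 and 37.6 CPM in untreated libraries. Its difference in the replicate 3 pair, -0.20, was smaller than that of the replicate 2 pair, -0.62. The scaffold INCENP differed by 0.12, -0.49 and -0.23, the borealin gene CDCA8 by 0.23, -0.65 and -0.32 and BIRC5, survivin, by 0.07, -0.33 and -0.17. The shugoshins protect cohesin at centromeres. SGO2 had 24.9, 15.7 and 17.5 CPM in pre-dose libraries, against 18.4, 26.3 and 25.8 CPM in untreated libraries. It was the lowest of the members relative to untreated in the replicate 2 and 3 pairs, at 59.7 and 67.9%, and the second highest in the replicate 1 pair, where the untreated library was low. SGO1 had 10.4, 6.88 and 7.76 CPM in pre-dose libraries, against 10.1, 11.1 and 9.71 CPM in untreated libraries, and its replicate 1 difference of 0.04 was within counting error.

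Genes of the switch to anaphase, 5 members, had medians of 0.17, -0.47 and -0.30. CDC20, the activator that the checkpoint restrains, on chromosome 1 from 43358955 to 43363203, had 277, 114 and 133 CPM in pre-dose libraries, against 239, 178 and 179 CPM in untreated libraries. The pre-dose libraries thus spanned a wider range than the untreated ones. UBE2C, which starts ubiquitin chains for the anaphase-promoting complex, had 58.5, 33.7 and 36.6 CPM in pre-dose libraries, against 50.6, 44.8 and 46.9 CPM in untreated libraries. Its partner UBE2S, which extends the chains, had 340.3, 169.7 and 188 CPM in pre-dose libraries, against 327, 241 and 232 CPM in untreated libraries. Both were lowest in pre-dose replicates 2 and 3, and UBE2S was high in both replicate 1 libraries. PTTG1, the securin that holds separase inactive, had 67.4, 49.4 and 50.7 CPM in pre-dose libraries, against 66.4, 60.5 and 54.2 CPM in untreated libraries. It was among the 3 members with the smallest mean difference, with 0.02, -0.29 and -0.09, and ESPL1, separase itself, differed by 0.17, -0.47 and -0.28.

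Spindle genes, 7 members, had medians of 0.22, -0.47 and -0.29. ASPM, which organises spindle poles, had 191, 143 and 161 CPM in pre-dose libraries, against 149, 211 and 208 CPM in untreated libraries. Untreated replicate 1 was far below the other untreated libraries, and pre-dose replicate 1 was also below them. HMMR, a spindle protein, had 36.5, 22.1 and 25.5 CPM in pre-dose libraries, against 26.1, 32.0 and 29.9 CPM in untreated libraries. In the replicate 1 pair it stood at 140% of untreated, the highest of the members, and its mean difference of -0.09 was the second smallest. NUSAP1 and PRC1 bundle spindle microtubules. NUSAP1 differed by 0.22, -0.39 and -0.25, and PRC1 by 0.11, -0.36 and -0.29. DLGAP5, which stabilises kinetochore fibres, differed by 0.09, -0.47 and -0.37. Of the microtubule-associated proteins, CKAP2 differed by 0.29, -0.42 and -0.25, and GTSE1 by 0.22, -0.55 and -0.31. At the cleavage furrow, the actin scaffold ANLN differed by 0.18, -0.44 and -0.34, and ECT2, an activator of RhoA, by 0.25, -0.52 and -0.25. MKI67, the proliferation marker Ki-67, had 1225, 741 and 855 CPM in pre-dose libraries, against 1059.6, 1033 and 1039.5 CPM in untreated libraries, with untreated libraries close together and pre-dose libraries on either side of them.

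Members differed in how the untreated libraries themselves were ordered. Untreated replicate 1 was above both other untreated libraries for 28 members, below both for 12 and between them for 2, where 41.9% of all genes were above and 44.1% below. The 5 anaphase genes were all higher in it, by 0.07 to 0.47 on the log2 scale, UBE2S most. Among 7 spindle genes the median offset was -0.07 and ASPM was lowest at -0.48. SGO2 (-0.48), TTK (-0.30) and BUB1B (-0.25) were also lower there. Because this library is the untreated partner of the replicate 1 pair, its level enters each difference of that pair, and its part in them was not tested. Across the 42 members the differences of the replicate 2 and 3 pairs, which share no library, had a Pearson correlation of 0.60, against 0.24 over all 13616 genes. The replicate 1 differences correlated at -0.45 with the mean of the other pairs across the members. These are descriptions over genes that share libraries.

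Promoters are shown because many members are known targets of shared factors. What part these factors have in the members' differences was not tested. Factors of the MuvB group are known to read a short element, the cell cycle homology region, near the start site, often downstream of CCAAT boxes bound by NF-Y. RefSeq promoters on GRCh38.p14, running from 250 bases before to 50 bases from the start site, were held for 35 members. Those of AURKA, BUB3, TTK, TPX2, BIRC5, UBE2C and FOXM1 were not matched. The motifs searched were TTTGAA and TTCGAA for the homology region and CCAAT, each on both strands with overlaps allowed. In the sequences, written 5′ to 3′ along the gene, capitals mark the matches, which on the other strand read TTCAAA and ATTGG. CDK1 and CDC25C have several start sites in the table, and the window with the most matches near the start is given.
CDK1 (chr10:60778228-60778527, plus strand): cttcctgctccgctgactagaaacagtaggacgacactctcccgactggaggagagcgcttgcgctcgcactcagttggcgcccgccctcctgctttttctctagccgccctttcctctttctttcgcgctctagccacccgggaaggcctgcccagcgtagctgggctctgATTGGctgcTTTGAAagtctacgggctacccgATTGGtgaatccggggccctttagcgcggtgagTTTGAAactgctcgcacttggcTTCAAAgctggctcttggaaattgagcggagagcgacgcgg
CCNB1 (chr5:69166900-69167199, plus strand): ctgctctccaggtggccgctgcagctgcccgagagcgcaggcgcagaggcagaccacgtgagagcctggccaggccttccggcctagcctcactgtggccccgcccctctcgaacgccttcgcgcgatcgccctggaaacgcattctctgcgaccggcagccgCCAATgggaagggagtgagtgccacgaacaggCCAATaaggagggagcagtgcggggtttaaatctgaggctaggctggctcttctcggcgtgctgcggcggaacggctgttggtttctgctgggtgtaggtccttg
CCNB2 (chr15:59104896-59105195, plus strand): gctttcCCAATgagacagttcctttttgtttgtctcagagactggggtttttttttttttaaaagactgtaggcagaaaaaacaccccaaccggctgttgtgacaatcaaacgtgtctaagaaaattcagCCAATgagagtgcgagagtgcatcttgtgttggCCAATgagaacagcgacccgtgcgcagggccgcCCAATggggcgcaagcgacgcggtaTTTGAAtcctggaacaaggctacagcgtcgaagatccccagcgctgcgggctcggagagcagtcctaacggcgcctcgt
PLK1 (chr16:23678639-23678938, plus strand): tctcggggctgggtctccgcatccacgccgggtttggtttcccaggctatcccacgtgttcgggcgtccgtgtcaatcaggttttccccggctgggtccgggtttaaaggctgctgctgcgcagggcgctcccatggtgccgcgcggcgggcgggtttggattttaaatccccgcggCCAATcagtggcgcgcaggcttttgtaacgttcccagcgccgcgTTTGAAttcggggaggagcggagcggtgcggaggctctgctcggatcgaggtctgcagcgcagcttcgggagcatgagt
BUB1B (chr15:40160819-40161118, plus strand): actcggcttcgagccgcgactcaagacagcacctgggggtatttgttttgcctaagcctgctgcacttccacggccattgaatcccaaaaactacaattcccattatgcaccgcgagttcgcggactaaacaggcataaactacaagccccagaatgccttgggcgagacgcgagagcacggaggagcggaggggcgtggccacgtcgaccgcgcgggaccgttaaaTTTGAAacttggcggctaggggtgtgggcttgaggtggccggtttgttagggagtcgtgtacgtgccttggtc
CDC20 (chr1:43358731-43359030, plus strand): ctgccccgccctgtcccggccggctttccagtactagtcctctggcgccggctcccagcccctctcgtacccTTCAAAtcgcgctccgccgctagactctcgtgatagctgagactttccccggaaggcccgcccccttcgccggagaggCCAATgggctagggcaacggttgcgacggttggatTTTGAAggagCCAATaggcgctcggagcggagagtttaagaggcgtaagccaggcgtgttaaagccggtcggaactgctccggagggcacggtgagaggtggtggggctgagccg
CDC25C (chr5:138331755-138332054, minus strand): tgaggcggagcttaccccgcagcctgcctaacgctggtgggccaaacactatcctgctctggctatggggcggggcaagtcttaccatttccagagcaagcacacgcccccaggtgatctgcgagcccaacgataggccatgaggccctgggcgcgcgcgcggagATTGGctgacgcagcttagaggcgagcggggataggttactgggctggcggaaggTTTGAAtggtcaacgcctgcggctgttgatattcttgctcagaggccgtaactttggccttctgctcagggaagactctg
CKS2 (chr9:89310945-89311244, plus strand): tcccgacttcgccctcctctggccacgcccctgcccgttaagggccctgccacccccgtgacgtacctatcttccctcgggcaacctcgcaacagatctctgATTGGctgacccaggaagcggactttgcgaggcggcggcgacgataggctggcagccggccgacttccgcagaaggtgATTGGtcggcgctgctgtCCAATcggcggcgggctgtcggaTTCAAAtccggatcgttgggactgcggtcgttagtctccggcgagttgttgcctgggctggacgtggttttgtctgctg

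At least 1 homology region match lay in a window of 26 of the 35 members, 74.3%, and of 15.5% of the 9957 genes tested that have a window. In a narrower stretch, from 60 bases before to 10 bases from the start, chosen after the printed sequences were seen, 20 members had a match, 57.1%, against 3.78% of the genes tested. CCAAT was found for 31 members, 88.6%, against 43.7%, and both motifs in the same window for 23, 65.7%, against 6.56%. By window, the homology region was in 29 of 48 member windows and in 11.9% of the 14576 windows of genes tested. Over all 35116 windows held, of genes tested or not, the share was 16.4%. In CCNB2, PLK1 and CKS2 the match began 29 bases before the start, in CDC25C 30 and in BUB1B 23. The 9 members without a match to TTTGAA or TTCGAA in these windows were AURKB, CCNA2, CCNB1, CKAP2, MYBL2, NEK2, PTTG1, SGO2 and UBE2S. Any other form of the element was not searched, so lack of a match does not mean that it is absent. Median differences were 0.18, -0.51 and -0.29 in the 3 pairs for the 26 members with a match and 0.17, -0.50 and -0.30 for the 9 without. A match is a run of letters, and binding was not measured.

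In the test across all genes no member passed. With limma-trend on all 6 libraries, 0 of 42 members had an adjusted p under 0.05, as did 0% of the 13616 genes tested, and 0 members had an unadjusted p under 0.05, against 0.808% of all genes on the lower side and 1.25% on the higher side. All 42 fitted differences were negative, against 50.6% of all genes, with a median of -0.20 and a median standard error of 0.18. The smallest unadjusted p among members was 0.0685, for BUB1B, whose fitted difference was -0.28 (95% interval -0.58 to 0.03). MYBL2 was next, with -0.33 (95% interval -0.69 to 0.04), followed by SGO1 with -0.29 (95% interval -0.62 to 0.05). PLK1 and CDC20 had wide intervals, with -0.26 (95% interval -0.98 to 0.46) and -0.28 (95% interval -1.02 to 0.45), beside pre-dose libraries that were far apart. CCNB1 averaged 77.3 ± 30.5 CPM in pre-dose and 88.2 ± 10.0 CPM in untreated libraries (SD, n = 3 each) and CDK1 averaged 33.6 ± 5.98 CPM in pre-dose and 37.7 ± 3.18 CPM in untreated libraries (SD, n = 3 each).

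The call depended on the replicate 1 libraries. Fitted to replicates 2 and 3 only, a choice made with earlier results of these data known, limma-trend called 40 of the 42 members lower, against 3.47% of all genes, and 0 higher, against 2.89%. PLK4 (adjusted p = 0.0684) and PTTG1 (adjusted p = 0.0700) were the exceptions. The median difference there was -0.38 with a median standard error of 0.0586. CCNB1 differed by -0.46 (adjusted p = 0.000399 in limma), PLK1 by -0.52 (0.00187), CDC20 by -0.53 (0.000931) and SGO2 by -0.62 (0.000942). FOXM1 had a smaller difference of -0.20 (adjusted p = 0.0297 in limma). With 2 libraries per group that fit rests on 4 libraries, and the difference between the replicate 1 pair and the others was not itself tested. With 1 library left out at a time, the median difference of the members was -0.41 without pre-dose replicate 1 and -0.04 without pre-dose replicate 2. With the replicate number as a block, limma called 0 members (smallest adjusted p = 0.161), and 8 had an unadjusted p under 0.05, all lower, against 5.4% of all genes.

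The authors' deposited table has its own comparison, whose sign was reversed so that negative is lower after the pre-dose. Its differences are not those of the limma fit to 6 libraries, so the 2 sets of calls rest on unlike estimates. For BUB1B the difference was -0.46 there and -0.28 in limma, while MYBL2 had -0.30 there and -0.33 in limma. The number of members past an adjusted p of 0.05 in the authors' deposited table was 8, all lower, against 1.45% of its genes lower and 1.61% higher. In the authors' deposited table these were BUB1B (0.0254), SGO2 (0.0295), DLGAP5 (0.0295), ASPM (0.0372), CDCA3 (0.0434), ANLN (0.0445), CDC25C (0.0460) and NUSAP1 (0.0485), with adjusted p in parentheses. The authors' deposited table put NEK2 just outside at 0.0501, with CDK1 at 0.0517, BUB1 at 0.0520, CCNA2 at 0.0526 and CCNB1 at 0.0537. Voom with library quality weights, which gave the replicate 1 libraries weights of 0.199 (pre-dose) and 0.230 (untreated), called 3 members lower, BUB1B, SGO2 and DLGAP5, against 0.308% of all genes. Its differences for these 3 were -0.46, -0.57 and -0.38, near the -0.46, -0.55 and -0.37 of the authors' deposited table. Both rest on the same libraries and are not separate evidence. Whether the authors weighted libraries is not given in the labels.

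Other genes of the pathway had smaller median differences. Among 12 measured genes of the CDK1 switch, median differences were 0.08, -0.21 and -0.07 in the 3 pairs, and in limma over 6 libraries 0 passed. WEE1, the kinase that inhibits CDK1, had 41.3, 37.0 and 40.9 CPM in pre-dose libraries, against 40.0, 44.9 and 44.7 CPM in untreated libraries. Its relative PKMYT1 differed by -0.05, -0.47 and -0.06, the phosphatase gene CDC25A by 0.03, -0.28 and -0.32 and MASTL, which restrains the opposing phosphatase, by 0.06, -0.26 and -0.08. In replicates 2 and 3 only, 2 of the 12 passed as lower, CCNF and CDC25A (adjusted p = 0.0108 and 0.0386 in limma), and 1 as higher, CDKN1A. Of all genes, 3.47% passed as lower there and 2.89% as higher. CDKN1A, which encodes p21, had 217, 573 and 472 CPM in pre-dose libraries, against 162, 229 and 233 CPM in untreated libraries. It was higher in each pair, by 0.42, 1.32 and 1.02. Untreated replicate 1 was the lowest of its libraries, and pre-dose replicate 1 stood below untreated replicates 2 and 3. Whether CDKN1A has a part in the members' differences was not tested. In limma over 6 libraries CDKN1A had an unadjusted p of 0.0311 and did not pass, and in the authors' deposited table it had an adjusted p of 0.0254.

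Subunits and regulators of the anaphase-promoting complex, 16 genes, had median differences of -0.04, -0.07 and -0.02. None passed in limma over 6 libraries, at an adjusted or an unadjusted p of 0.05, and 1, CDC27, did in replicates 2 and 3 (adjusted p = 0.0182 in limma), as lower. The share of all genes that passed as lower there was 3.47%. The activator FZR1 had 114, 86.6 and 98.3 CPM in pre-dose libraries, against 108, 101 and 104 CPM in untreated libraries, and the inhibitor FBXO5 differed by -0.11, -0.36 and -0.04. In the list of DREAM and MuvB subunits, 11 genes, medians were -0.01, -0.11 and -0.01. LIN9, a MuvB core subunit, had 5.05, 3.398 and 3.75 CPM in pre-dose libraries, against 4.80, 6.17 and 5.22 CPM in untreated libraries. It did not pass in limma over 6 libraries (unadjusted p = 0.0496), passed in replicates 2 and 3 (adjusted p = 0.0241 in limma) and had an adjusted p of 0.0388 in the authors' deposited table. In replicates 2 and 3 LIN9 was the 1 gene of the 11 that passed as lower, against 3.47% of all genes. CCNF, CDC27 and LIN9 were named after their values were seen.

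S phase genes were set beside the members because they are induced earlier in the same cycle. The 22 genes of replication licensing and nucleotide supply had medians of -0.02, -0.24 and 0.02 in the 3 pairs. All 22 were lower in the replicate 2 pair, 10 in the replicate 3 pair and 13 in the replicate 1 pair, and 0 passed in limma over 6 libraries, where 0 also had an unadjusted p under 0.05. In replicates 2 and 3 only, 0 passed in limma and 6 had an unadjusted p under 0.05, all lower, against 10.9% of all genes. None was past an adjusted p of 0.05 in the authors' deposited table. Their mean log2(CPM + 1) was 5.88, 5.29 and 5.54 in pre-dose libraries and 5.90, 5.54 and 5.53 in untreated libraries. The mean of the S phase genes was thus high in both replicate 1 libraries. The mean of the members was highest in pre-dose replicate 1 and close together in the untreated libraries, where single members were offset in untreated replicate 1 by -0.48 to 0.47. No test of the difference between the 2 lists was made.

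**Figure D4:**
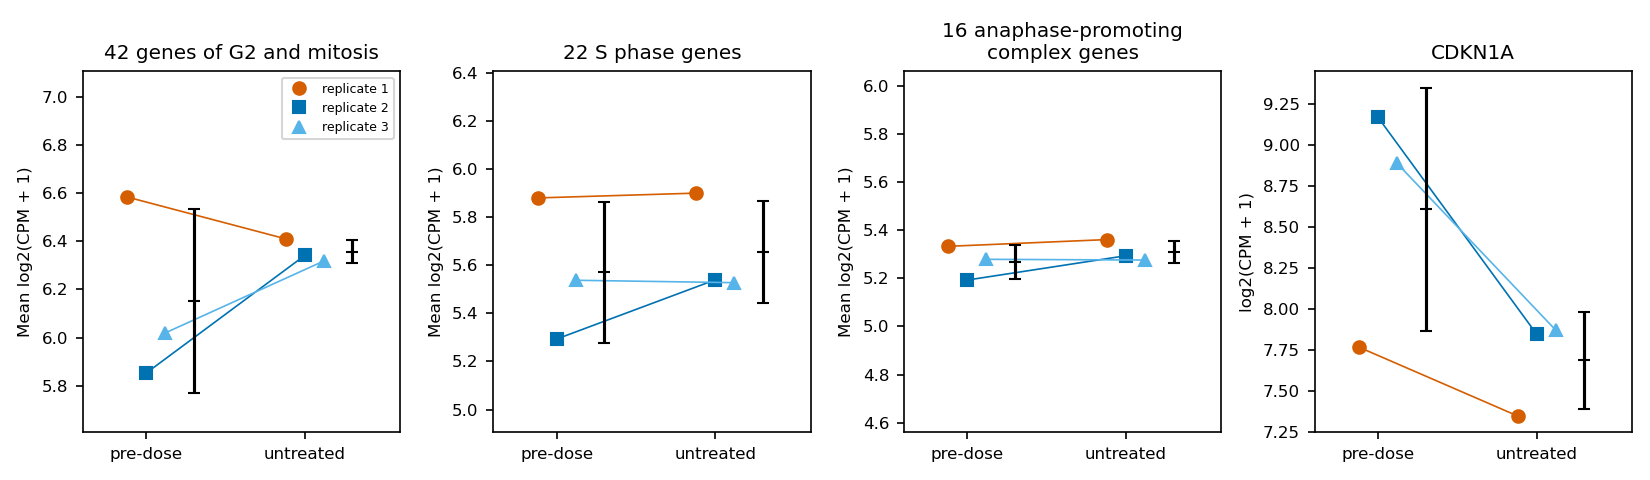
Mean log2(CPM + 1) of 3 gene lists, and log2(CPM + 1) of CDKN1A, in each library, pre-dose at left and untreated at right, with lines joining libraries of the same replicate number and black bars giving the mean and SD (n = 3). The 3 list panels span the same height on the y axis and the CDKN1A panel a larger one. The members stand at 5.85 and 6.02 in pre-dose replicates 2 and 3 and at 6.58 in pre-dose replicate 1, and CDKN1A is highest in pre-dose replicate 2.

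Reads of some members may be shared with near copies. GENCODE release 29 lists pseudogenes named after 13 of the 42, with 6 for CKS1B, 4 for UBE2C and 2 each for AURKA, NEK2, SGO1 and UBE2S. CCNB2, CDC20, BUB1, BUB3, DLGAP5, CKAP2 and MKI67 have 1 each. How reads shared with such copies were counted is not given in the sources used here, so the levels of these genes, CKS1B above all, are uncertain.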

How the data were processed

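Poly-A RNA of 6 libraries was sequenced as paired 150-base reads, per the labels' protocols. The authors deposited 1 table of 13773 rows with log2 CPM values. Of these, 77 repeated an identifier and were dropped, which left 13696 genes. With an offset of 0.5 counts, 100% of deposited values under 200 reads lay within 0.0005 reads of a hundredth of a read, and 53.6 to 56.2% per library within 0.01 of a whole read, so they were read as estimated counts. Values above 200 reads were not checked. No version or role is given for bcl2fastq, DRAGEN, edgeR, limma or hg38 in the submitters' processing notes. The deposited comparison, per the file headers, holds log2 fold changes, p-values, adjusted p-values, a moderated score and a signed linear fold. Its fold changes had the direction of untreated minus pre-dose and were turned here. Before turning they correlated at -0.69 with the differences of the 6-library means, pre-dose minus untreated. They are thus not those plain mean differences, and the labels do not give the model behind them. The score and linear fold were not used.

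A filter on low values (mean of 1 CPM or more) kept 13616 genes, fitted with limma-trend (R 4.3.3, limma 3.58.1) on log2(CPM + 1) of all 6 libraries, with Benjamini-Hochberg adjustment over all of them. A pseudocount of 1 CPM understates changes of low genes. Counting intervals are exact binomial (Clopper-Pearson) on rounded estimated counts, as log2 ratios of CPM, and cover counting error only. In these libraries 3 counts are 0.0944 to 0.114 CPM. Figures used matplotlib 3.10.9.

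The members, lists and tests were chosen with earlier results of these data known. Named in full were 21 members picked by role, the 3 with the largest and the 3 with the smallest mean difference, and MYBL2 for its sign. CKS1B, SGO2, UBE2S and ASPM were added to these after their values were seen. Gene positions are from GENCODE 29.

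The groups share replicate numbers. Libraries of 1 number were treated as pairs by that number alone. Deviations from the group means over the genes tested correlated at 0.66, 0.45 and 0.18 for same-numbered libraries 1, 2 and 3. With replicates 2 and 3 swapped the values were higher, 0.51 (pre-dose 2 with untreated 3) and 0.28 (pre-dose 3 with untreated 2). The correlations thus do not settle how replicates 2 and 3 pair, and the labels do not state the pairing. Pre-dose replicates 2 and 3 correlated at -0.62 and -0.29 with untreated replicate 1. Deviations within a group sum to 0, so these negative values follow in part from the 0.66 of the replicate 1 libraries.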

Additional observations from a re-analysis of the deposited data

How the results depend on the processing

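Another pseudocount (0.25 CPM), the log2 CPM values as deposited, no filter on low values, centring each library on its median and quantile normalization each left 0 members and 0 genes past the threshold, and the median difference of the members between -0.20 and -0.19. Under the scalings tried, the medians of the 3 pairs kept their signs. FOXM1, level in the replicate 1 pair, became lower there when libraries were centred. With the replicate number as a block, 0 genes passed and the members' median was -0.20. The block changed no call. Leaving out 1 library at a time gave 0 genes and 0 members past the threshold in each case, and a members' median from -0.41 to -0.04. Without pre-dose replicate 2 the differences of FOXM1 (0.0026), BUB3 (0.031) and HMMR (0.061) turned positive, while without pre-dose replicate 1 FOXM1 was at -0.33, BUB3 at -0.20 and HMMR at -0.29; the cause was not tested. Replicates 2 and 3 only gave 866 genes, 394 higher and 472 lower, and 40 members, with a members' median of -0.38. Voom with library quality weights gave 108 genes, 66 higher and 42 lower, and 3 members, with a median of -0.34. These fits use or weight fewer libraries and were chosen with earlier results known. Each member had 207 reads or more in every library. In the replicate 1 pair the differences of FOXM1, PTTG1, CKS1B, SGO1 and PLK4 were within counting error. The counting interval there was narrow for FOXM1, -0.042 to 0.045, and wider for SGO1, -0.19 to 0.27.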
